A study of Caenorhabditis elegans with 3 samples.

Results

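Binding of EGL-27 was examined at 9 genes that encode subunits of the NuRD and MEC chromatin complexes of Caenorhabditis elegans: lin-40, lin-53, dcp-66, mep-1, let-418, chd-3, hda-1, rba-1 and mbd-2. They were taken by name, out of 19973 protein-coding genes, and each was followed from 2000 bp upstream of its annotated 5' end to its 3' end, a stretch called the gene window here. The data are chromatin immunoprecipitation with sequencing (ChIP-seq) from whole L2 larvae of mixed sex. All animals were of strain OP177, with the genotype unc-119(ed3) III; wgIs177, and carried, on the transgene, EGL-27 with GFP and FLAG fused to its C-terminus. The label for the antibody names EGL-27. The 3 biological replicates come from 1 transgenic line and form 1 group, so there is no comparison between conditions, and no test is given. In whole animals, weak occupancy in many cells and strong occupancy in few cells cannot be told apart.

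NuRD joins a Mi-2 type ATPase, which moves nucleosomes, to histone deacetylases and to subunits that hold the complex together or contact histones and DNA. In the worm, LET-418 is the main Mi-2 homologue and CHD-3 a second version of it. HDA-1 is the deacetylase, LIN-53 and RBA-1 are the RbAp-type homologues, DCP-66 is the p66 homologue, MBD-2 is the MBD2/3 homologue, and LIN-40 and EGL-27 are the MTA homologues. EGL-27, the protein mapped here, is therefore itself of the MTA family. LET-418 and HDA-1 also form the MEC complex with the zinc finger protein MEP-1, which keeps germline genes silent in somatic cells.

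The authors' set of regions kept by the irreproducible discovery rate (IDR), a measure of rank agreement between replicates, held 1997 regions with a median signal of 50.8 (range 34.8 to 378). The signal is the authors' value per region, on a scale that the sources used here do not name. The pooled list of peaks and background held 30000 regions, with a median signal of 10.7, and many of these are weak by construction. The IDR set was the 1997 strongest regions of this pooled list by signal. A region in the set is therefore not shown to have agreed between replicates by itself. The replicates' own lists held 13245 regions in replicate 1 and 30000 each in replicates 2 and 3, with signals of up to 38.0 in replicate 1, 169 in replicate 2 and 175 in replicate 3, so a region is compared between replicates by its presence and by its rank. The files hold no read counts, and the sequencing depth is unknown.

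IDR regions lay upstream of the genes for the RbAp, p66, MTA and MEP-1 subunits, and none lay at those for the Mi-2 ATPases, the deacetylase or MBD-2. Not all of these regions can be assigned to the members. That of the RbAp genes lay between lin-53 and nra-2, and the farther mep-1 summit was nearest to the 5' end of gfl-1. Genes without an IDR region are not shown to be unbound. Of the 9 genes, 5 (55.6%) had an IDR summit in the gene window, where 9.88% of all protein-coding genes had one. Among the 13424 genes whose window was as long as those of the members, 9.56% had one. The 5 genes were lin-40, lin-53, dcp-66, mep-1 and rba-1, of which lin-53 and rba-1 shared a region, while let-418, chd-3, hda-1 and mbd-2 had none. In the promoter, taken as 1000 bp before to 200 bp after the 5' end, 4 of 9 genes (44.4%) had an IDR summit, against 6.04% of all protein-coding genes, and the gene without such a summit among the 5 was rba-1. Both counts depended on whether replicate 1 had to list the region: when replicate 2 or 3 was left out and only regions listed in the remaining pair were kept, 3 of 9 genes had a summit in the gene window and 1 of 9, lin-53, in the promoter. Those 3 genes rested on 2 regions, that shared by lin-53 and rba-1 and the farther one of mep-1. The shares of all protein-coding genes were then 6.09% (without replicate 2) and 6.11% (without replicate 3) for the gene window and 3.67% for the promoter, and without replicate 1 the members' counts were 5 and 4. These genes were chosen with the binding at several of them already known, so the shares describe the genes and support nothing beyond them.

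The windows of the 9 genes held 5 distinct IDR regions and 27 distinct pooled regions in 51.8 kb of merged sequence. The density of IDR regions was 0.0965 per kb, where the genome had 0.0199, and that of pooled regions was 0.521 per kb, where it had 0.299. The genome values divide by the whole length of the chromosomes and not by gene windows alone, so the comparison is not of like sequence. All 5 IDR summits were upstream of the 5' end. The other 22 pooled regions had signals of 6.73 to 19.7, with a median of 9.56, and 14 of them had their summit inside the gene. No region in these windows therefore had a signal between 19.7 and the 34.8 at which the IDR set begins. Gene bodies make up most of the merged sequence. The shares of all IDR and pooled regions that lie upstream of or inside genes are not given here, so the positions describe these regions only.

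**Figure D1:**
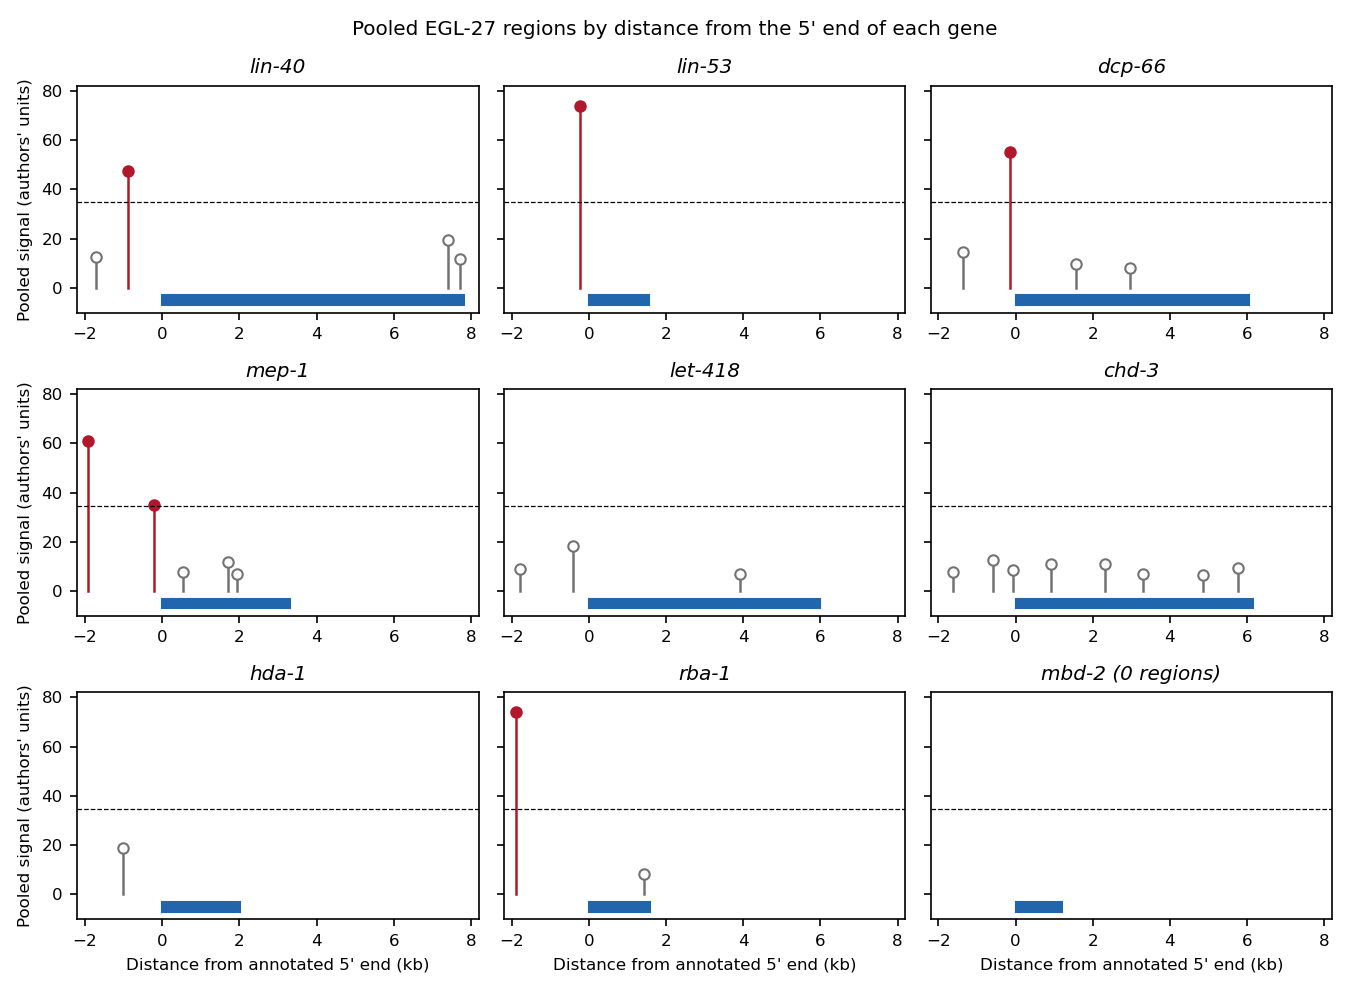
Pooled signal (vertical axis, authors' units) of every pooled region against the distance of its summit from the annotated 5' end (horizontal axis, kb, upstream is negative), with a panel for each of the 9 genes. Filled red points are the IDR regions, open grey points the other pooled regions, the blue bar is the gene and the dashed line the lowest signal of the IDR set (34.8); every red point is upstream of its gene, and the point for lin-53 and that at -1877 bp of rba-1 are the same region.

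The sequence under the summits is shown for the members on chromosomes IV, V and X, so that the bound sequences can be set beside those of the members with weak regions. Each line gives 100 bp on each side of a summit, 5′ to 3′ on the strand of the gene, read from the RefSeq WBcel235 genome, which has the ce11 coordinates. Capitals mark matches, on either strand, to 6 short motifs. The GATA core, GATAA, is the letters that the zinc fingers of GATA factors are known to prefer. EGL-27 has a zinc finger of the GATA type, and its own preference was not tested here. The GA repeat, GAGAGA, is a simple repeat that GAGA-type factors of the fly are known to bind. The E-box was searched as CACGTG, which is the form that many basic helix-loop-helix proteins bind. The FOXO site was searched as GTAAACA, known from the forkhead factors of the insulin pathway. The CHR element, TTTGAA, is a form of the homology region of cell cycle genes, which complexes of the DRM type bind. The E2F site was searched as GCGGGAAA, a form that the E2F factors of many animals bind. The IDR regions come before the strongest pooled region of the genes with no IDR region. The lin-40 window is chrV:3703998-3704198 (+), those of mep-1 are chrIV:11522620-11522820 (+) and chrIV:11524337-11524537 (+), and those of let-418, hda-1 and chd-3 are chrV:5826310-5826510 (+), chrV:14524268-14524468 (+) and chrX:12853079-12853279 (-).
lin-40, summit at -890 bp, IDR: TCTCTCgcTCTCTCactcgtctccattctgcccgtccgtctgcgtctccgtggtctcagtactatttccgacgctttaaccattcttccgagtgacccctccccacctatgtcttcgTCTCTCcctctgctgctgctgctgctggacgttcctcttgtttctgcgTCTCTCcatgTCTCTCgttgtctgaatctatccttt
mep-1, summit at -1922 bp, IDR: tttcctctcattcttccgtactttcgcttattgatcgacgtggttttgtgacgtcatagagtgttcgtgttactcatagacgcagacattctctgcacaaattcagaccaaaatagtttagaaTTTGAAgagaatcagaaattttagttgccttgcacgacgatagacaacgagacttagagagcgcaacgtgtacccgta
mep-1, summit at -205 bp, IDR: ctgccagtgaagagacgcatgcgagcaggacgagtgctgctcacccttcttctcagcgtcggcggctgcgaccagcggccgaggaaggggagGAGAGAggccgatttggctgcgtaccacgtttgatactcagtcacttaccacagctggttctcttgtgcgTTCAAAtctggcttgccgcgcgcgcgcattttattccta
let-418, summit at -423 bp, pooled only: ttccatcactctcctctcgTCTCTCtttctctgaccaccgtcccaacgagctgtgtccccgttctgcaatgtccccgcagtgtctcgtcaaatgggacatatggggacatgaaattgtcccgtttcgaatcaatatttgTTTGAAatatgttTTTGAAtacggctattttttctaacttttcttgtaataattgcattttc
hda-1, summit at -1021 bp, pooled only: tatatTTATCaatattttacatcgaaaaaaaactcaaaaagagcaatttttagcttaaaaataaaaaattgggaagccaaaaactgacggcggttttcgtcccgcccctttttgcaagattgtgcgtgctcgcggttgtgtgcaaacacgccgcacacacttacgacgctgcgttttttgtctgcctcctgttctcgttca
chd-3, summit at -578 bp, pooled only: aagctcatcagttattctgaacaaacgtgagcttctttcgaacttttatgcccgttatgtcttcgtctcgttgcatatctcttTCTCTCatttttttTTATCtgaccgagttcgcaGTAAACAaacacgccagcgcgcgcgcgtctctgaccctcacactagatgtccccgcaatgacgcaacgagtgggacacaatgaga

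No motif was present at all 5 IDR summits. The GA repeat was found within 100 bp of 3 of them, 5 times at lin-40, 3 times at dcp-66 and 1 time at the nearer mep-1 summit, and at 49.3% of all IDR summits. The CHR element was found at 4 of the 5, those of lin-53, dcp-66 and mep-1 (both), and at 28.8% of all IDR summits. The lin-53 summit alone among the 5 held the GATA core, which was at 35.1% of all IDR summits, and the E2F site, which was at 2.05%. The E-box and the FOXO site were at 0 of the 5 and at 9.11% and 3.51% of all. G+C content ran from 36.8% at dcp-66 through 41.3% at the farther mep-1 summit, 48.8% at lin-53 and 53.7% at lin-40 to 58.7% at the nearer mep-1 summit, where the quartiles of all IDR summits were 39.8% and 48.8%. Of the windows without an IDR region, that of chd-3 held the GATA core, the GA repeat and the FOXO site, that of let-418 held the GA repeat and, at 2 places, the CHR element, and that of hda-1 held the GATA core. A match describes the letters in the window and is not evidence of a bound site.

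The strongest region of the group stood between lin-53 and its divergent neighbour nra-2. The gene lin-53 (WBGene00003036, chromosome I, 9618196 to 9619760, minus strand) encodes a histone-binding RbAp-type homologue that several chromatin complexes share. Its IDR region (I, 9619809 to 9620158) had a pooled signal of 74.1, rank 473, higher than 76.3% of the IDR set. The summit was 224 bp upstream of the lin-53 5' end and 243 bp from the 5' end of nra-2, which encodes a nicalin homologue of the endoplasmic reticulum, in a gap of 466 bp between the genes. The region can belong to either promoter, and these data do not assign it. Its signal was 6.99 in replicate 1 (rank 1017), 31.4 in replicate 2 (rank 492) and 39.4 in replicate 3 (rank 472). All 3 replicates listed it, at a mean rank of 660.3 ± 309 (SD, n = 3), with summits 2 to 16 bp from the pooled summit, and replicate 1 placed it lowest. No other pooled region lay in the lin-53 window, and replicate 3 alone listed a weak one beyond the nra-2 5' end, at -930 bp of lin-53 (signal 3.52, rank 29159).

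The same region was the only IDR region in the window of rba-1. The gene rba-1 (WBGene00004312, I, 9616516 to 9618107, minus strand), which encodes the other RbAp-type homologue, lies 88 bp behind the 3' end of lin-53 on the same strand. From the rba-1 5' end the shared summit is 1877 bp upstream, beyond the whole of lin-53, and lin-53 is the nearer gene. No IDR or pooled summit lay between that summit and the rba-1 5' end. Replicate 3 alone listed a weak region in the 3' part of lin-53, at -199 bp of rba-1 (I, 9618134 to 9618477, signal 6.52, rank 12931), and replicate 2 alone another inside lin-53 (I, 9618865 to 9619220, signal 3.74, rank 21900). A pooled region in the intron sequence of rba-1 (I, 9616501 to 9616850, signal 8.35) was listed in replicate 3 only, and its nearest 5' end, 343 bp away, was that of K07A1.10.

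At dcp-66, the IDR region covered the 5' end. The gene (WBGene00000938, I, 7536104 to 7542159, minus strand) encodes the p66 subunit, which links parts of NuRD in other animals. Its region (I, 7542132 to 7542481) had a pooled signal of 55.3, rank 858, higher than 57.0% of the IDR set, with the summit at -148 bp. Replicate 1 did not list it, whereas replicates 2 and 3 listed it with signals of 22.5 (rank 1001) and 28.6 (rank 892). No protein-coding gene shares this promoter, since the next one upstream, T25G3.1, begins 11684 bp away.

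The dcp-66 window held 3 further pooled regions, all weaker. That at -1370 bp (I, 7543354 to 7543703, signal 14.5) was ranked 2350 in replicate 2 and 28989 in replicate 3 and was not listed in replicate 1, so its level rested mostly on replicate 2. A region 1569 bp into the gene (I, 7540415 to 7540764, signal 9.61) was listed in replicates 1 and 2, and another at 2964 bp (I, 7539020 to 7539369, signal 8.03) in replicate 3 alone. Both summits were in coding exons.

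The MTA homologue gene lin-40 had its IDR region further from the 5' end than the other genes with an IDR summit within 1000 bp. The gene (WBGene00003025, V, 3704988 to 3712796, plus strand) had the region at V, 3703923 to 3704272, with a pooled signal of 47.4, rank 1140, higher than 42.9% of the IDR set. The summit at -890 bp was intergenic. The next protein-coding gene upstream, unc-132, lies on the same strand and ends 3072 bp before lin-40, so no neighbour shares this promoter. Replicate 1 did not list the region, and replicates 2 and 3 had signals of 19.2 (rank 1363) and 23.8 (rank 1292), with summits 6 and 0 bp from the pooled summit. In the sequence printed above, all 5 GA repeats read TCTCTC on the lin-40 strand.

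Of the 3 other pooled regions at lin-40, that at -1728 bp (V, 3703085 to 3703434, signal 12.5) was in all replicates. It was ranked 2344 in replicate 1, where it was the only region in the lin-40 window, and 21522 and 16082 in replicates 2 and 3. A region in the last part of the gene (V, 3712206 to 3712555, signal 19.7, in a coding exon) was the strongest of all pooled regions outside the IDR set at the 9 genes. It was listed in replicates 2 (rank 10244) and 3 (rank 4607), as was its weaker neighbour in an untranslated exon (V, 3712542 to 3712891, signal 12.0). Both lay nearer to the 5' end of nrsn-1, which is on the opposite strand and overlaps the 3' end of lin-40.

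The MEC gene mep-1 was the only member with a pair of IDR regions, and they differed in their support. The gene (WBGene00003218, IV, 11524642 to 11527954, plus strand) encodes a zinc finger protein. The farther region (IV, 11522545 to 11522894) had a pooled signal of 61.1, rank 703, higher than 64.8% of the IDR set, with its summit at -1922 bp. All replicates listed it, with signals of 12.2 in replicate 1 (rank 191), 19.2 in replicate 2 (rank 1362) and 34.0 in replicate 3 (rank 653), and a mean rank of 735 ± 589.8 (SD, n = 3). Replicate 1 placed this region higher than the other replicates did, whereas it placed the lin-53 region lower. The summits in replicates 1 and 2 were 71 and 84 bp from the pooled summit, and that in replicate 3 was 1 bp from it. This summit was 506 bp behind the 3' end of gfl-1, a gene for a YEATS domain protein on the same strand, and its nearest 5' end was that of gfl-1 at 1430 bp, not that of mep-1.

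The nearer mep-1 region stood at the edge of the IDR set. It lay at IV, 11524262 to 11524611, with the summit at -205 bp, inside a pair of overlapping noncoding RNA genes on opposite strands, M04B2.11 and M04B2.13. Its pooled signal of 34.8 had rank 1988 of the 1997 IDR regions, and 0.451% of the IDR set was lower. The lowest signal inside the set was 34.752 and the highest outside it was 34.745. Replicate 1 did not list the region, replicate 2 had it at a signal of 10.2 (rank 4157) and replicate 3 at 22.8 (rank 1391). It was thus the only 1 of the 5 IDR regions that was outside the 1997 strongest regions of replicate 2.

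Inside mep-1 there were 3 weak pooled regions. They lay 533 bp (IV, 11525000 to 11525349, signal 7.64, intron), 1696 bp (IV, 11526163 to 11526512, signal 11.9, coding exon) and 1931 bp (IV, 11526398 to 11526747, signal 6.85, coding exon) from the 5' end. Each overlapped a region of replicates 2 and 3 and none of replicate 1, and the last pair overlapped the same replicate regions. The nearest 5' end to the last was that of M04B2.2, at 1479 bp. No other protein-coding gene reaches into this window.

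Across the 5 IDR regions, replicates 2 and 3 listed every region and replicate 1 listed 2. In the whole IDR set 60.1% of regions were listed in replicate 1, 99.5% in replicate 2 and 99.6% in replicate 3, so replicate 1 also listed fewer regions of the whole set. The regions in every replicate were those of lin-53 with rba-1 and the farther one of mep-1, 2 of 5, against 59.7% of the IDR set. These 2 were also among the 1997 strongest regions of every replicate, as were 25% of the IDR set. The IDR set was itself made from these replicates, so the overlap is no independent measure. Without replicate 1 the count of member regions listed in every remaining replicate was 5, and without replicate 2 or replicate 3 it was 2.

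**Figure D2:**
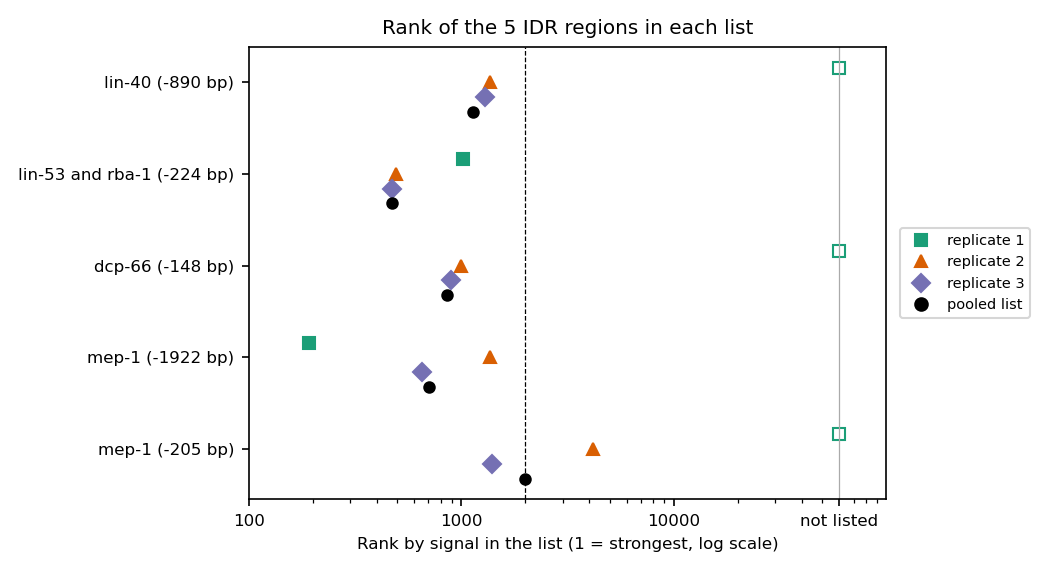
Rank by signal (horizontal axis, log scale, 1 is the strongest) of each of the 5 IDR regions in the lists of replicates 1, 2 and 3 and in the pooled list; open squares on the grey line mean that the replicate did not list the region, and the dashed line is at rank 1997, the size of the IDR set. Replicate 1 lacks 3 of the 5 regions and places the farther mep-1 region at rank 191, above its rank in the other replicates.

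The genes for the Mi-2 ATPases had weak regions, none of which was listed in every replicate. Of all pooled regions outside the IDR set, 7.19% were listed in every replicate, so this is the usual state of such regions. At let-418 (WBGene00002637, V, 5826833 to 5832831, plus strand) the strongest pooled region was at -423 bp (V, 5826235 to 5826584, signal 18.3, rank 5848). It overlapped regions of replicate 1 (signal 2.13, rank 12289) and replicate 2 (signal 9.07, rank 5194) and none of replicate 3, and the replicate 2 summit was 212 bp away. A second, weaker region of replicate 2 (signal 3.03, rank 27716) lay closer, with its own summit at -434 bp. A region at -1790 bp (V, 5824868 to 5825217, signal 9.15) was listed in replicate 2 only, and that 3926 bp into the gene (V, 5830584 to 5830933, signal 6.80) in no replicate. No other annotated gene overlaps this window, and the next protein-coding gene upstream, ZC250.4, is divergent and begins 13695 bp away.

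The chd-3 gene (WBGene00000482, X, 12846439 to 12852601, minus strand) had 8 pooled regions, the most of the 9 genes, and all were weak. The strongest, at -578 bp (X, 12853004 to 12853353, signal 12.6, rank 11245), was ranked 820 in replicate 1 (signal 7.51), was not listed in replicate 2 and was ranked 14527 in replicate 3. Replicate 1 thus held it among its strongest 1997 regions, which it did for no other of the 22 pooled regions outside the IDR set. Of the others upstream, that at -63 bp (X, 12852489 to 12852838, signal 8.80) was listed in replicates 2 and 3 and that at -1617 bp (X, 12854043 to 12854392, signal 7.76) in replicate 3. The next protein-coding gene upstream, T14G8.2, is divergent and begins 5399 bp away, so it does not reach into the window.

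The 5 regions inside chd-3 all had summits in coding exons. That at 922 bp (X, 12851504 to 12851853, signal 11.3) was listed in replicates 2 and 3. Those at 2306 bp (X, 12850120 to 12850469, signal 11.1) and 3311 bp (X, 12849115 to 12849464, signal 6.91) were listed in replicate 2, that at 5765 bp (X, 12846661 to 12847010, signal 9.52) in replicate 1, and that at 4859 bp (X, 12847567 to 12847916, signal 6.73) in none. The 5' end of C52G5.3 was nearer than that of chd-3 for the 3 regions farthest into the gene.

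The deacetylase gene hda-1 (WBGene00001834, V, 14525389 to 14527411, plus strand) had a single pooled region (V, 14524193 to 14524542, signal 18.7, rank 5665). Its summit at -1021 bp lay in the noncoding RNA gene C53A5.18 and was 239 bp upstream of ril-1, the divergent neighbour, which was the nearer gene. Replicate 1 listed no region in the hda-1 window, replicate 2 listed this one at rank 20037 (signal 4.01) and replicate 3 at rank 3549 (signal 13.5). The gap between hda-1 and ril-1 is 1259 bp.

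The mbd-2 gene (WBGene00023409, I, 6064088 to 6065298, plus strand) had 0 regions in the IDR set, 0 in the pooled list and 0 in each replicate's list. It lies within pigo-1, which is on the opposite strand, and the nearest pooled summit was 3816 bp from its 5' end. It was the only member with no pooled summit: 8 of 9 genes (88.9%) had at least 1, as had 66.1% of all protein-coding genes. A pooled summit in the window is thus the usual state of a gene and says little by itself.

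Of the 22 pooled regions outside the IDR set, 1 (at -1728 bp of lin-40) was listed in every replicate, against 7.19% of all such regions. A further 12 were listed in 2 replicates, 7 in 1 and 2 in none. Taken by themselves, the replicates listed 9, 24 and 25 distinct regions in the windows of the 9 genes (replicates 1, 2 and 3), of which 2, 4 and 7 overlapped no pooled region there. Per kb this was 0.174, 0.463 and 0.482, against 0.132, 0.299 and 0.299 in the genome, where all sequence is counted and not gene windows alone.

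Among genes of related chromatin complexes, the SWI/SNF and DRM genes had shares of the same size as the NuRD and MEC genes. SWI/SNF is another nucleosome remodeller, and the DRM complex joins E2F, the retinoblastoma homologue and LIN-54 at promoters. Of 10 SWI/SNF genes measured, 6 (60%) had an IDR summit in the gene window: swsn-1, swsn-3, swsn-6, swsn-7, let-526 and pbrm-1, led by a region 5507 bp into let-526, an ARID1 homologue (signal 139.8), whose nearest 5' end was that of F48C1.3. Of 7 DRM genes, 4 (57.1%) had one: efl-1, lin-9, lin-37 and lin-54, led by that at -366 bp of lin-54 (signal 189.9), whose nearest 5' end was that of rpl-12, a ribosomal protein gene. The summits counted for lin-37 and swsn-6 were nearest to the 5' ends of ZK418.5 and perm-3. In the promoter, 4 of 10 SWI/SNF genes and 3 of 7 DRM genes had an IDR summit, against 6.04% of all protein-coding genes. Both window shares stand beside the same 9.88% of all protein-coding genes, and no test was made. These lists too were chosen with earlier results of these data known.

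Of the lists with more than 1 gene, the others had smaller shares, and those of the other synMuv B genes (12.5%) and the other histone deacetylase genes (14.3%) were near the 9.88% of all protein-coding genes. There was 1 of 8 other synMuv B genes (lin-13, signal 41.1), 1 of 7 other histone deacetylase genes (hda-6, signal 40.9), 1 of 4 other CHD and ISWI ATPase genes (chd-7, signal 79.5) and 2 of 8 SIN3, CoREST and LSD1 genes (spr-1, the CoREST homologue, signal 37.8, and lsd-1, signal 36.0). None of 4 synMuv A genes and none of 9 SUMO pathway genes and MEP-1 partners had one. The spr-1 and lsd-1 summits, at -1046 and -1526 bp, were outside the promoter and nearest to the 5' ends of snap-1 and nfya-1. Together the lists had 16 of 58 genes (27.6%), with a median window of 6.80 kb, against 5.31 kb for the NuRD and MEC genes and 4.03 kb for all protein-coding genes. The other MTA gene, egl-27, is a list of its own (1 of 1) and is counted among the 16. It had 12 IDR regions in its window, where reads of the tagged transgene and of the native gene cannot be told apart, and lin-40 had 1.

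**Figure D3:**
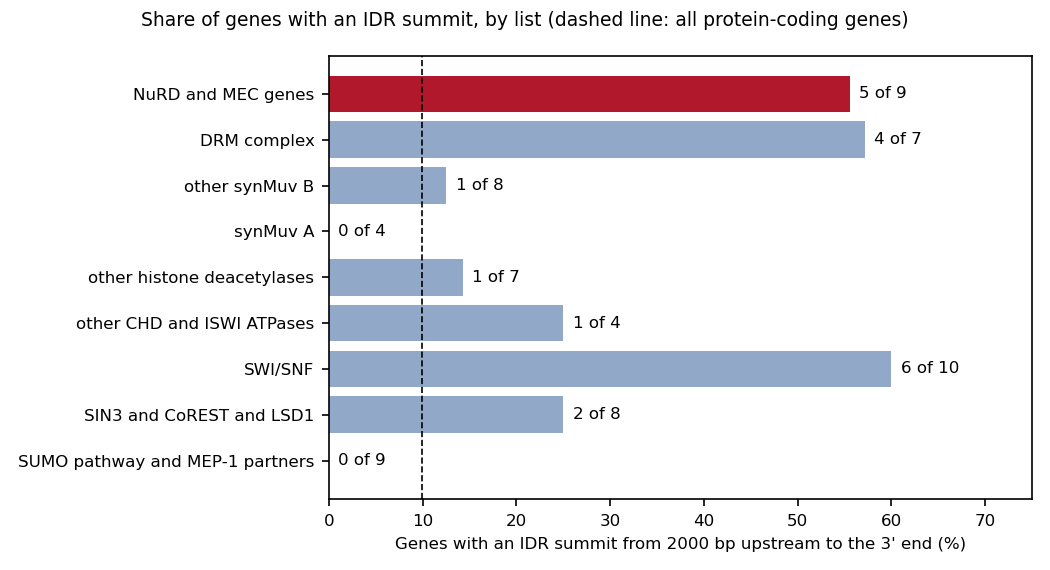
Percentage of genes (horizontal axis) with an IDR summit from 2000 bp upstream of the 5' end to the 3' end, for the NuRD and MEC genes (red) and for the lists of related chromatin genes with more than 1 gene (blue), with the counts beside the bars and egl-27 (1 of 1) not drawn. The dashed line marks the 9.88% of all protein-coding genes; the NuRD and MEC genes (5 of 9), the DRM genes (4 of 7) and the SWI/SNF genes (6 of 10) have the longest bars drawn.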

How the data were processed

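EGL-27 ChIP-seq in 3 replicates of whole L2 larvae was used as deposited. Per the deposited notes, the authors made a list from each replicate's reads and a control and another from all replicates together, and drew the IDR set from these lists. The control was not analysed here. Aligner, caller, IDR threshold and the scale of the signal: not given in the sources used here. The authors deposited a signal and a −log10 q-value per region. All 5 IDR regions at the members shared the highest q-value of the pooled list. So did 2210 pooled regions in all, more than the IDR set holds, so this value does not set the members apart.

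Positions are on ce11, genes from Ensembl release 115 (WBcel235), and sequence from RefSeq WBcel235. Lists on ce10 were not used for genes, and only the lowest signal of that IDR set (33.98) was taken from them. A summit counted for a gene when it lay in the window. A replicate listed a region when one of its own overlapped by 1 bp or more, and the strongest overlapping region gave its signal and rank. Python 3.11.15, numpy 2.4.6 and pandas 2.3.3 were used, and the counting was tested on simulated data. Members and lists were chosen with earlier results of these data known. swsn-8 and mog-6 matched no symbol and were left out. All members were named. Of the other lists with more than 1 gene, the strongest IDR region of each that had one was named, together with all genes that had an IDR summit. For egl-27 only the count of regions was given.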

Additional observations from a re-analysis of the deposited data

How the results depend on the processing

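The 5 members with an IDR summit in the gene window were 3 when only regions listed in every replicate, or among the strongest of every replicate, were kept, and 3 with an upstream limit of 500 bp. Leaving out each replicate in turn and keeping regions listed in both others gave 3 to 5, with the lowest values, here and below, without replicate 2 or 3, where the shorter list of replicate 1 is required. The shares of all protein-coding genes fell with them, to 6.07% and 2.63% for the 2 replicate rules, and that for the 500 bp limit is not given here. The 5 IDR regions became 3 in the 998 strongest of the set, 2 under either replicate rule and 3 within 500 bp, with 2 to 5 on leaving out a replicate. The 4 members with a promoter summit became 2 in the 998 strongest and 1 under either replicate rule, with 1 to 4 on leaving out a replicate. The promoter share of all protein-coding genes fell from 6.04% to 3.28% in the 998 strongest. It was 3.65% with regions in every replicate and 1.58% with regions among the strongest of every replicate. The 27 pooled regions became 5 at the highest q-value, 15 in the 15000 strongest of the list and 3 when listed in every replicate, with 4 to 15 on leaving out a replicate. The 5 at the highest q-value were the IDR regions again, so that setting is no separate check. The 2 member regions listed in every replicate were 2 to 5 on leaving out a replicate. The 16 other chromatin genes became 10 in the 998 strongest, 10 with regions in every replicate and 10 with the 1000 bp promoter, with 10 to 15 on leaving out a replicate. In the same order, the shares of all protein-coding genes were 5.25%, 6.07% and 6.04%, with 6.09% to 9.78% on leaving out a replicate. With 50 bp on each side of the summit, the GATA core was at 0, the E2F site at 0 and the CHR element at 2 of the 5 summits, where 20.0%, 0.851% and 13.3% of all IDR summits had them. Of 59 alternatives 29 stayed within 1.5 times the reported count. Among them were the 5' ends of all transcripts and, chosen after seeing the data, the threshold of the ce10 set and the assignment to the nearest 5' end, which leaves 4 members, without rba-1. Depth is unknown, so regions that are not listed are not shown to be unbound.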
